A study of Mus musculus with 6 samples.

Results

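This account follows 10 genes of cell-cell adhesion in the mouse ovarian cancer line ID8, out of 53465 genes in the count table. They were chosen by symbol for their roles, without a threshold on the values but with earlier results of these data known. They comprise the cadherins Cdh1, Cdh2, Cdh3 and Cdh11, the catenins Ctnnb1, Ctnna1 and Ctnnd1, the desmosome linker Dsp, the tight junction scaffold Tjp1 and the adhesion molecule Esam. RNA was sequenced from 3 libraries labelled KO, which the series describes as ID8 cells stably transfected with sgNat10, and from 3 labelled WT, described as ID8 cells stably transfected with sgNC, a control guide. Nat10 encodes the enzyme that writes N4-acetylcytidine on RNA, and the series calls its loss a knockdown while the sample titles call it KO. All cells are of 1 line, and the labels do not say whether either guide population is a clone or whether the replicates, numbered 4 to 6 in each group, are separate cultures. Guide and cell population therefore cannot be told apart. The p-values refer to the spread among the 6 libraries, and that spread may be purely technical.

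Classical cadherins are membrane proteins that bind the same or like cadherins on the neighbouring cell. Inside the cell their tails hold beta-catenin and p120-catenin, and alpha-catenin ties the complex to actin. Beta-catenin that is not held at the membrane can enter the nucleus and work with TCF factors on Wnt target genes. Ovarian surface epithelium is mesothelial in kind, and it is known for N-cadherin together with simple keratins, with E-cadherin low or patchy.

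Total counts were 2541273, 2234305 and 3126208 in KO-labelled replicates 4, 5 and 6 and 1687466, 2148715 and 1811225 in the WT replicates, so the KO-labelled libraries were the deeper ones. Levels are given in CPM, counts scaled to library size. Nat10 itself stood at 106 ± 43.1 CPM in the libraries labelled KO and 112 ± 53.1 CPM in WT libraries (SD, n = 3 each). Its log2 fold change had a 95% interval of -1.09 to 0.94 (edgeR quasi-likelihood test, adjusted p = 0.99996). That interval includes both lower and higher levels in the KO-labelled libraries. Transcript level alone does not show whether the guide altered the gene or its protein, so it cannot check the labels. Directions below are therefore those of the libraries labelled KO. In every library the number of reads per gene had a peak well above 1 read. The smoothed histogram peaked at 43, 46 and 58 reads in the KO-labelled libraries and at 15, 20 and 33 reads in WT libraries with a running mean over 11 counts, a window picked after windows of 5, 7, 9 and 11 had been viewed. Over those windows the peak of WT replicate 6 lay between 29 and 40 reads and that of KO replicate 6 between 55 and 60. Among the 8200 tested genes, 21.5% in the KO-labelled and 12.8% in the WT group had no read in 1 library and at least 30 reads in another of the same group. With a limit of 60 reads, likewise set after seeing the data, the shares were 13.3% in the KO-labelled and 4.72% in the WT group. At the limit of 30 reads Cdh1 (in WT) and Ctnnd1 (in KO-labelled libraries) are such genes and Esam is not; the part this plays in their values was not tested.

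Of the 10 members, 8 had enough reads to be tested, Cdh1 was too low and Cdh11 had no read. None of the 8 passed an adjusted p of 0.05 in edgeR's quasi-likelihood test, where 0.402% of all tested genes passed. At an unadjusted p under 0.05 there were 2, against 6.49% of all tested genes, namely Cdh3 higher (2.7% of all) and Esam lower (3.79% of all). DESeq2 called 1 member, Esam, as lower (2.66% of its genes were called, 1.44% as lower), and limma-voom called none (0.524%). In 4 of the 8 the groups did not overlap, Cdh3 with KO-labelled libraries above and Ctnnb1, Ctnnd1 and Esam with them below, where 14.9% of all tested genes did not overlap (6.94% higher, 7.93% lower). Esam passed the filter on low counts through its WT libraries alone. The median log2 fold change over the 8 was -0.13, against -0.02 over all tested genes.

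**Figure D1:**
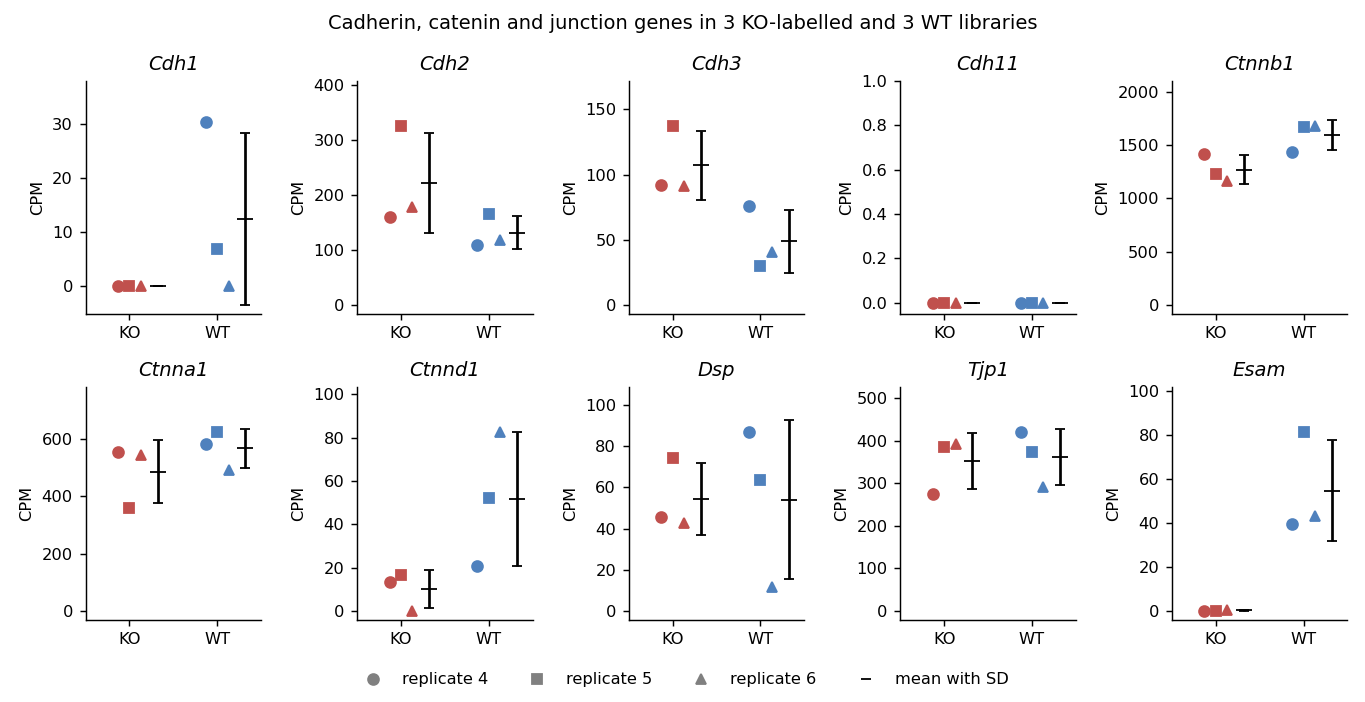
Level of each member (y axis, CPM scaled by TMM library size, a separate linear axis for each gene) in the 3 KO-labelled libraries (red, left) and the 3 WT libraries (blue, right), with the mean and SD in black; symbols mark the replicate number. The groups separate for Cdh3, Ctnnb1, Ctnnd1 and Esam, Cdh11 lies at 0 throughout, and the groups of the remaining members overlap.

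Per kilobase of exon, the scale on which different genes can be set side by side, Ctnnb1 and Ctnna1 were the most abundant members. Ctnnb1 averaged 276 CPM per kilobase over the 6 libraries (range 223 to 324), above 99.1% of tested protein-coding genes. Ctnna1 followed at 81.9 (55.7 to 97.2) and Tjp1 at 45.6 (35.3 to 53.9), and the ranges of these 3 genes did not overlap each other. From Tjp1 downward each gene's range overlapped that of the next, with Cdh2 reaching up to 40.3. Cdh2 averaged 21.8 CPM per kilobase, Cdh3 17.8, Esam 9.59, Dsp 5.61, Ctnnd1 4.22 and Cdh1 1.36, and Cdh11 had no read.

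Among the 4 cadherin members, reads fell mostly on N-cadherin and P-cadherin, with few on E-cadherin. Of the cadherins outside the 4, the atypical cadherin Fat1 averaged 20.4 CPM per kilobase in KO-labelled and 24.2 in WT libraries, where Cdh2 averaged 27.4 in KO-labelled and 16.2 in WT libraries. Cdh2, the N-cadherin of mesenchymal, neural and mesothelial cells, had 410, 760 and 574 counts in KO-labelled replicates 4, 5 and 6, against 180, 331 and 203 in the WT replicates. Scaled for depth this was 160, 325 and 178 CPM in KO-labelled libraries and 109, 165 and 117 CPM in WT libraries. The highest WT value lay just above the lowest KO-labelled one, so the groups overlapped. The log2 fold change was 0.76 ± 0.36 (SE; 95% interval -0.01 to 1.52; edgeR adjusted p = 0.776). KO replicate 5 carried much of it, and without that library the estimate was 0.38.

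Cdh3, the P-cadherin first described in placenta and found in many epithelia, had 236, 321 and 295 counts in KO-labelled libraries and 125, 60 and 70 in WT libraries. In CPM these were 92.1, 137 and 91.5 in KO-labelled libraries and 76.0, 29.98 and 40.5 in WT libraries, so that every KO-labelled value lay above every WT value. The estimate was 1.13 ± 0.52 on the log2 scale (95% interval 0.03 to 2.24), a 2.19-fold difference that did not pass the adjustment (edgeR unadjusted p = 0.0453, adjusted p = 0.737). It ran from 0.88 to 1.60 with 1 library left out.

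Cdh1, the E-cadherin of epithelial junctions, was listed at 0 in all 3 KO-labelled libraries and had 50, 14 and 0 counts in WT replicates 4, 5 and 6. The WT signal thus came mostly from replicate 4, and WT replicate 6 was as empty as the KO-labelled libraries. Setting the KO-labelled group at a floor of 3 counts, pooled WT libraries stood at least 32.2-fold higher, and at least 10.2-fold without WT replicate 4. The floor covers counting error of the KO-labelled group only and takes each read as an independent count. It lies far below the histogram peaks of 43, 46 and 58 reads in those libraries. Whether reads are independent was not tested, and if they are not, these folds are no lower limits. The 50 counts equal 3.33 times the histogram peak of that library and the 14 counts 0.700 times. Where the filter let Cdh1 be tested, its adjusted p ran from 0.264 (DESeq2) to 0.798. Cdh11, the cadherin of osteoblasts and other mesenchymal cells, had no read among 7901786 KO-labelled and 5647406 WT reads. With reads taken as independent, 3 counts over the group allow up to 0.369 CPM in KO-labelled and 0.558 CPM in WT libraries.

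Cdh3 lies at chr8:106510891-106557297 and Cdh1 at chr8:106603351-106670246 on the plus strand in mm10, 46053 bases apart. Of this neighbouring pair, Cdh3 had its higher values in the KO-labelled libraries and Cdh1 had reads in WT libraries alone.

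Summed per kilobase, the 4 cadherins came to 40.8, 71.7 and 43.0 CPM per kilobase in KO-labelled replicates 4, 5 and 6 and to 37.6, 28.9 and 23.8 in WT replicates. Every KO-labelled sum lay above every WT sum, by a narrow margin between KO replicate 4 and WT replicate 4. Cdh2 made up 48.6% to 56.3% of the sum in KO-labelled libraries and 36.1% to 71.0% in WT libraries, so its share overlapped. Cdh1 made up none of it in KO-labelled libraries and 17.7%, 5.30% and 0% in WT replicates 4, 5 and 6.

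**Figure D2:**
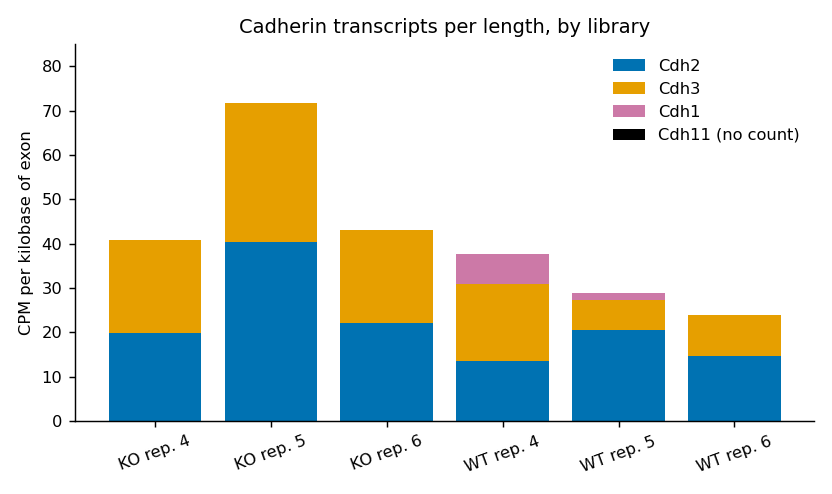
Stacked bars of cadherin transcript levels (y axis, CPM per kilobase of exon, from 0) in each KO-labelled (left) and WT (right) library. Cdh2 and Cdh3 fill the bars of the KO-labelled libraries, KO replicate 5 is the tallest at 71.7, and Cdh1 appears only in WT replicates 4 and 5.

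Among the catenins, Ctnnb1 and Ctnna1 were abundant and differed little between the groups. Ctnnb1, the beta-catenin of junctions and Wnt signalling, had 3641, 2864 and 3739 counts in KO-labelled libraries and 2358, 3350 and 2911 in WT libraries. Scaled, these were 1420, 1226 and 1160 CPM in KO-labelled and 1434, 1674 and 1683 CPM in WT libraries. All KO-labelled values lay below all WT values, with KO replicate 4 and WT replicate 4 nearly level. The log2 fold change was -0.33 ± 0.16 (SE; 95% interval -0.68 to 0.02; edgeR adjusted p = 0.83), so that a fall by more than 0.68 or a rise by more than 0.02 on that scale lies outside the interval.

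Ctnna1, the alpha-catenin that links the complex to actin, stood at 555, 358 and 545 CPM in KO-labelled and 583, 625 and 493 CPM in WT libraries. KO replicate 5 was the low value and the other 5 libraries lay together. Its log2 fold change was -0.22 ± 0.23 (SE; 95% interval -0.71 to 0.27; edgeR adjusted p = 0.99996). Per kilobase, Ctnnb1 was 3.17, 4.24 and 2.63 times Ctnna1 in KO-labelled replicates 4, 5 and 6 and 3.04, 3.32 and 4.22 times in the WT replicates, so the balance of the 2 genes overlapped between groups.

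Ctnnd1, the p120-catenin that keeps cadherins at the surface, was the variable member of the complex. It had 34, 39 and 0 counts in KO-labelled libraries, against 34, 104 and 143 in WT libraries. That is 13.3, 16.7 and 0 CPM in KO-labelled and 20.7, 52.0 and 82.7 CPM in WT libraries, without overlap. The log2 fold change of -2.37 ± 1.39 (SE) had a 95% interval of -5.34 to 0.59 and did not pass (edgeR adjusted p = 0.980). Exons of Gm28635, an annotated protein-coding gene on the same strand, cover 61.2% of the exon bases of Ctnnd1. Gm28635 had no read in any library. How reads in the shared part were assigned is unknown here. The level of Ctnnd1, and its place below the other catenins, is uncertain for that reason. Exons of Ulk4 on the other strand cover 14.6% of those of Ctnnb1, and Ulk4 had no read either.

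Dsp, which anchors keratin filaments to desmosomes, had 117, 174 and 138 counts in KO-labelled libraries and 143, 127 and 20 in WT libraries. The KO-labelled group averaged 54.3 ± 17.5 CPM and the WT group 54.0 ± 38.6 CPM (SD, n = 3 each). WT replicate 6 lay far below the other 5 libraries. The log2 fold change of 0.01 ± 0.71 has a 95% interval of -1.51 to 1.53, which reaches up to a 2.89-fold higher level in KO-labelled libraries. Tjp1, the tight junction scaffold ZO-1, had 706, 901 and 1268 counts in KO-labelled libraries and 692, 747 and 503 in WT libraries. Its groups overlapped fully, at 352 ± 66.0 CPM in KO-labelled and 362 ± 65.8 CPM in WT libraries (SD, n = 3 each), and the log2 interval ran from -0.57 to 0.49 around -0.04. Neither gene passed (edgeR adjusted p = 0.99996 for both), and the sign of both estimates turned under other settings.

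Esam, an immunoglobulin-domain adhesion molecule known from endothelial tight junctions and platelets, showed the widest separation of the 10 genes. It had 0, 0 and 2 counts in KO-labelled replicates 4, 5 and 6, against 65, 163 and 75 counts in the WT replicates. In CPM this was 0, 0 and 0.620 in KO-labelled libraries and 39.5, 81.4 and 43.4 in WT libraries. All 3 WT libraries held 65 reads or more, and the deeper KO-labelled libraries held 2 at most. Pooled by group, WT over KO-labelled libraries gave a ratio of 229, with a 95% exact counting interval of 62.8 to 1899. This interval covers counting error only, with each read taken as an independent count, which was not tested. In the KO-labelled group 21.5% of tested genes had no read in 1 library and at least 30 in another. That spread is wider than counting error alone. The interval leaves out the spread between libraries, so its lower end is no secure limit. The fitted log2 fold change was -7.60 ± 1.68 (SE), ranked 52 of 8200 by p, and its adjusted p of 0.0693 in edgeR lay just above the threshold.

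The call on Esam turned on the tool and the filter. DESeq2 gave an adjusted p of 6.3e-06 and edgeR without a filter on low counts 0.0120 (0.711% of genes were called there), while limma-voom gave 0.165. The first runs of these tools, DESeq2 on the filtered genes and limma-voom with robust moderation, gave 7.5e-06 and 0.102. With 1 library left out the edgeR adjusted p ran from 0.0676 without KO replicate 6 to 0.871 without WT replicate 5, the library with most Esam reads, and the log2 fold change from -9.82 to -7.11. The WT counts equal 4.33, 8.15 and 2.27 times the histogram peak of their libraries. With all counts divided by that peak and rounded, a setting chosen after seeing the data, the log2 fold change of Esam was -5.00 and the edgeR adjusted p 0.0528. That window of 11 counts was the 1 of 4 that left Esam above 0.05: with windows of 5, 7 and 9 counts the edgeR adjusted p was 0.0433, 0.0382 and 0.0436. Esam lies at chr9:37528078-37538319 on the plus strand in mm10, and no exon of another annotated gene overlaps its exons.

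**Figure D3:**
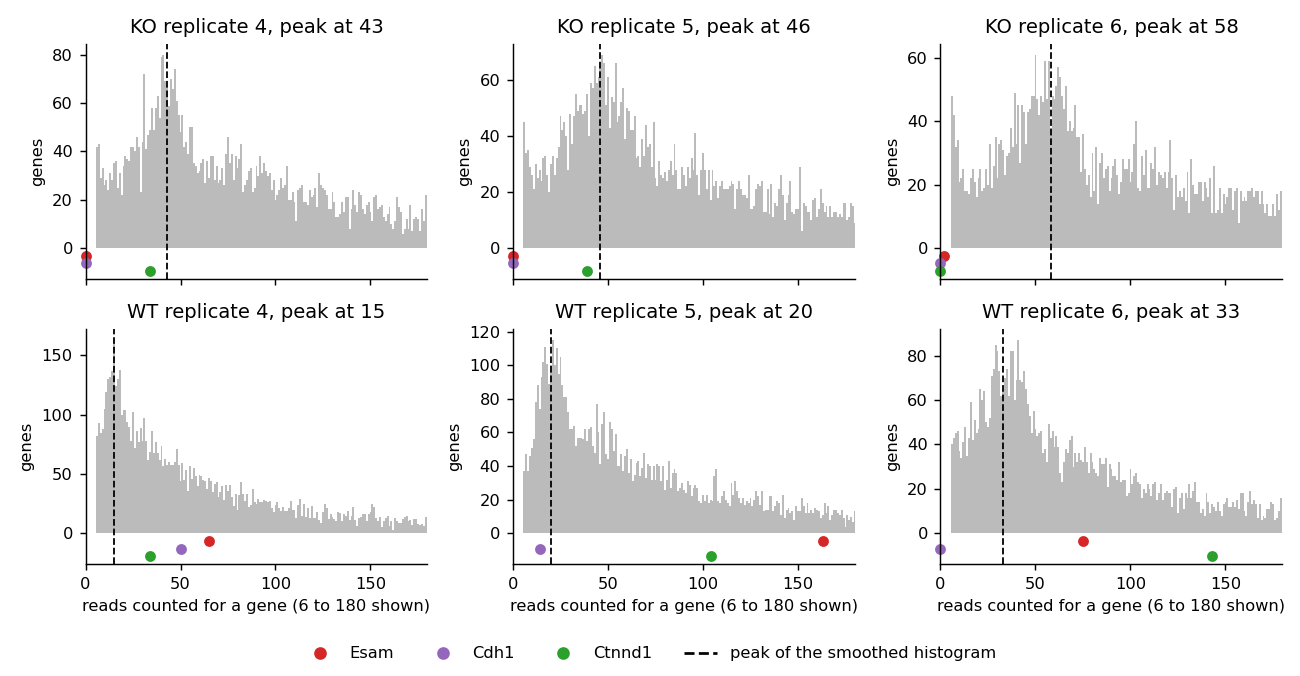
Number of genes (y axis) at each read count from 6 to 180 (x axis) in each KO-labelled (top) and WT (bottom) library, with the peak of the smoothed histogram as a dashed line; dots under the bars mark the counts of Esam, Cdh1 and Ctnnd1 on the same x axis. The peaks stand at 43 to 58 reads in KO-labelled and 15 to 33 reads in WT libraries, and Esam lies above the peak in each WT library and at 0 to 2 reads in KO-labelled ones.

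**Figure D4:**
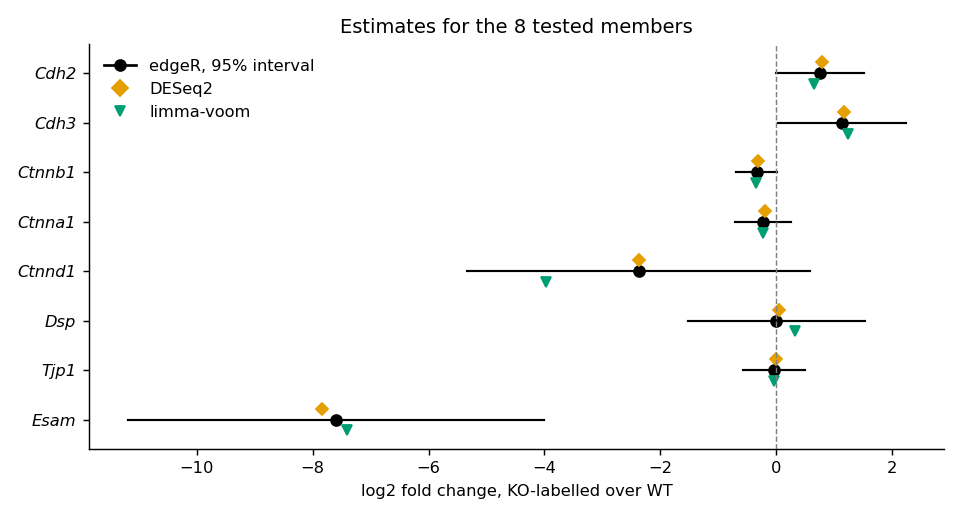
Log2 fold change of KO-labelled over WT libraries (x axis) for the 8 tested members (rows), from edgeR with its 95% interval (black), DESeq2 (orange) and limma-voom (green). The edgeR intervals of Cdh3 and Esam exclude 0 before adjustment, and the wide bars of Ctnnd1, Dsp and Esam show how little these counts constrain the size.

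Markers of endothelial cells, where Esam is best known, were at or near 0 in every library. Of 9 endothelial markers, 6 had a read somewhere and none could be tested. Their summed level was 0 to 2.48 CPM in KO-labelled and 0 to 5.996 CPM in WT libraries, the upper WT value coming from 12 reads of Tek in WT replicate 5. The vascular cadherin Cdh5, Pecam1 and Kdr were at 0 in all 3 WT libraries, where Esam was present, and Emcn, Cldn5 and Erg were at 0 in all 6 libraries. Leukocyte markers summed to 0 to 1.55 CPM in KO-labelled and 0 to 14.5 CPM in WT libraries, with Cd3e and Itgam at 0 throughout. Most of the WT value was Cd68, with 0 reads in each KO-labelled library and 10, 29 and 0 in the WT libraries. The first 2 are those that held Cdh1 reads, 50 and 14 in the same order, and a link was not tested. Of the fibroblast markers, Dcn alone was tested, at 1117 ± 188 CPM in KO-labelled and 700 ± 35.6 CPM in WT libraries (SD, n = 3 each; edgeR adjusted p = 0.246, DESeq2 0.00433). The summed fibroblast list was 951 to 1325 CPM in KO-labelled and 666 to 737 CPM in WT libraries, nearly all of it Dcn. Lum had 3 reads and Col3a1 88, all in KO replicate 6, and Pdgfra had at most 14 in a library. Thy1 and Fap were at 0. The part of this list in the cadherin values was not tested.

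Ovarian surface and mesothelial markers were read from a list of 14 genes, which includes the members Cdh1 and Cdh2. The list was written with earlier results of these data known. All 14 had a read somewhere and 10 were tested, of which 3 passed in edgeR, where 0.402% of all tested genes passed. An estimate above 0 was found for 6 of the 10, and DESeq2 called 5 (3 higher, 2 lower). Msln, the mesothelial surface antigen, rose to 1636 ± 209 CPM in KO-labelled libraries, against 789 ± 83.5 CPM in WT libraries (SD, n = 3 each; edgeR adjusted p = 0.0145). The simple keratin Krt18 fell to 154 ± 53.5 CPM in KO-labelled libraries, against 515 ± 123 CPM in WT libraries (edgeR adjusted p = 0.0195). Krt19, another simple keratin, fell to 2223 ± 32.1 CPM in KO-labelled libraries, against 4202 ± 203 CPM in WT libraries (edgeR adjusted p = 0.0044). With 1 library left out the edgeR adjusted p reached 0.108 for Msln (lost without KO replicate 4 or 5 or WT replicate 5 or 6), 0.216 for Krt18 (kept only without WT replicate 4) and 0.0755 for Krt19 (lost without WT replicate 5 or 6). Krt8, the type II keratin that pairs with Krt18, had 1, 74 and 251 counts in KO-labelled and 413, 346 and 293 in WT libraries (edgeR adjusted p = 0.51). DESeq2 alone also called Upk1b, a uroplakin, at 595 ± 155 CPM in KO-labelled and 342 ± 24.0 CPM in WT libraries (DESeq2 adjusted p = 0.00921, edgeR 0.304). It likewise called Bnc1, a zinc finger factor that passed the filter through its KO-labelled libraries alone, with 45, 54 and 156 counts in KO-labelled libraries and none in WT (DESeq2 adjusted p = 0.00297, edgeR 0.419). Dsp, which binds keratin filaments at the membrane, had overlapping groups.

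The wider adhesion machinery was read from 11 lists, which hold 205 further genes and were written with earlier results of these data known. Of these, 101 were tested and none passed in edgeR. At an unadjusted p under 0.05 there were 7 (2 higher, 5 lower), or 6.93%, close to the 6.49% of all tested genes. DESeq2 called 3 (2.66% of all its genes were called), Ncam1 and Vim higher and Cldn15 lower, and limma-voom called Vim only. The groups did not overlap in 24 of the 101 (23.8%; 11 higher, 13 lower), against 14.9% of all tested genes. The median log2 fold change was -0.05 over the 101 genes.

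**Figure D5:**
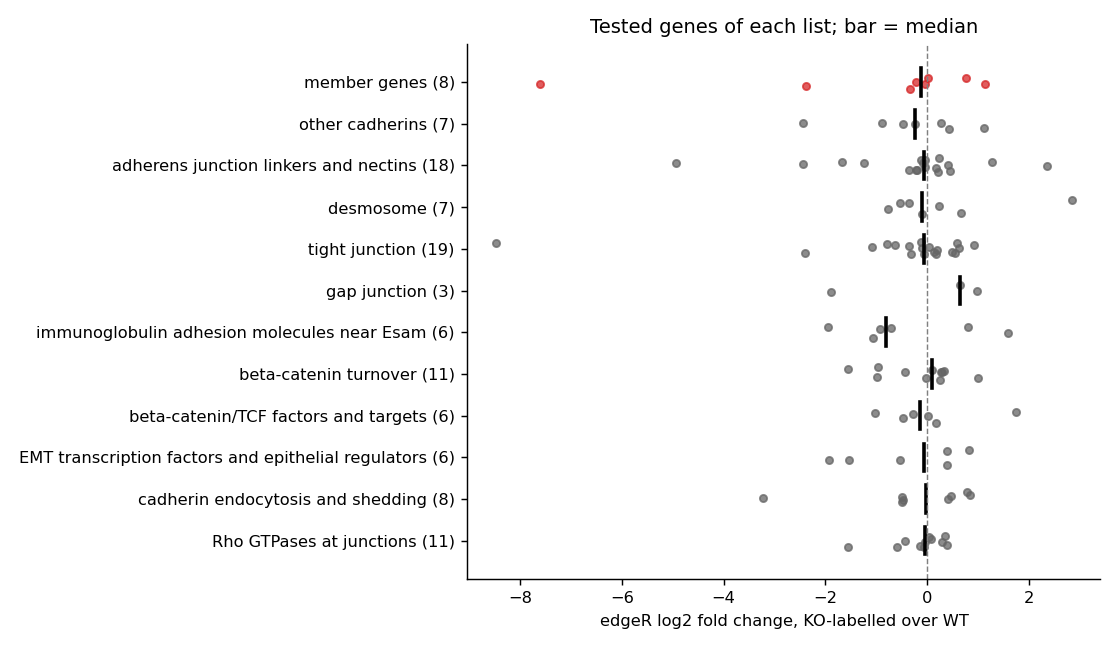
EdgeR log2 fold change of KO-labelled over WT libraries (x axis) for the tested genes of the 10 members (red) and of 11 lists of adhesion genes (grey), with the number tested in brackets and the median as a bar. The medians of the lists lie between -0.25 and 0.09, apart from the small gap junction (3 tested) and immunoglobulin adhesion (6 tested) lists, and single low-count genes such as Esam and Cldn15 lie far out.

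Many genes of the lists had no read, as did 50.3% of all protein-coding genes in the table. Of 30 other cadherins 20 had no read, of 39 tight junction genes 20, and of 14 desmosome genes 6. The genes without a read included the tight junction membrane proteins Ocln, Cldn1, Cldn4 and Cldn7, the epithelial adhesion molecule Epcam, the desmosomal cadherins Dsg1a, Dsg3, Dsc1 and Dsc3, and the epithelial regulators Grhl2, Ovol1, Ovol2, Esrp1 and Elf3. Others of these kinds did have reads. The desmosomal cadherin Dsg2 had 62, 97 and 116 counts in KO-labelled and 74, 17 and 57 in WT libraries. Among epithelial regulators, Klf4 had 2, 0 and 114 counts in KO-labelled and 65, 24 and 150 in WT libraries. Esrp2 had 64, 0 and 0 in KO-labelled and 39, 96 and 2 in WT libraries. F11r and Cxadr were among the abundant tight junction genes. F11r, the junctional adhesion molecule JAM-A, stood at 455 ± 117 CPM in KO-labelled and 447 ± 29.98 CPM in WT libraries (SD, n = 3 each). Cxadr, a receptor of the same junction, stood at 305 ± 43.0 CPM in KO-labelled and 269 ± 52.9 CPM in WT libraries. Cldn15, a claudin that forms a cation pore, had no read in KO-labelled libraries and 30, 27 and 47 reads in WT libraries. With the KO-labelled group set at 3 counts, and reads taken as independent, this is at least 52.4-fold more in WT. If reads are not independent, which was not tested, that fold is no lower limit. The adjusted p was 0.531 in edgeR, 0.0261 in DESeq2 and 0.324 in limma-voom. Cldn15 passed the filter through its WT libraries alone, and over the alternatives its adjusted p ran from 0.0174 to 0.928.

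Of the list of adherens junction linkers and nectins, 18 were tested and 7 had an estimate above 0, against 4021 of all 8200 tested genes. Jup, the plakoglobin shared by adherens junctions and desmosomes, stood at 312 ± 40.4 CPM in KO-labelled and 403 ± 51.3 CPM in WT libraries (SD, n = 3 each; edgeR adjusted p = 0.99996). Vcl, the vinculin that binds alpha-catenin under tension, stood at 612 ± 8.66 CPM in KO-labelled and 451 ± 122 CPM in WT libraries, without overlap (edgeR adjusted p = 0.882). Lmo7, a linker of nectin and cadherin junctions, had 2, 116 and 179 counts in KO-labelled and 284, 392 and 360 in WT libraries. Scaled, its groups did not overlap, and its log2 fold change was -2.44 ± 0.81 (edgeR adjusted p = 0.433). The edgeR adjusted p of Lmo7 was 0.0298 without a filter on low counts. With counts divided by the histogram peak, a setting chosen after seeing the data, it ran from 7.2e-04 to 0.0011 over the windows viewed. It stayed above 0.05 under 8 of the 13 other settings, among them DESeq2 (0.429) and limma-voom (0.224). With 1 library left out the edgeR adjusted p ran from 0.121 to 0.910. The actin binder Ablim1 had a log2 fold change of -1.24 ± 0.50 (edgeR adjusted p = 0.58). The desmosomal plakin Ppl stood at 172 ± 27.8 CPM in KO-labelled and 293 ± 54.9 CPM in WT libraries (edgeR adjusted p = 0.543).

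Among immunoglobulin adhesion molecules, Ncam1 stood on the other side from Esam. This neural cell adhesion molecule had 447, 670 and 629 counts in KO-labelled libraries and 98, 164 and 130 in WT libraries, or 219 ± 59.9 CPM in KO-labelled and 72.2 ± 11.5 CPM in WT libraries. The groups lay far apart, and the log2 fold change of 1.60 ± 0.36 (SE) came with an adjusted p of 0.0742 in edgeR, 1.2e-04 in DESeq2 and 0.164 in limma-voom. In edgeR the adjusted p was 0.0154 without a filter on low counts, 0.105 with the replicate number as a block, and up to 0.382 with 1 library left out (without KO replicate 5). With counts divided by the histogram peak, the edgeR adjusted p of Ncam1 was 0.0317, 0.0211, 0.0372 and 0.0225 for windows of 11, 5, 7 and 9 counts. Of the 6 tested genes of this list 4 had an estimate below 0, with a median of -0.81.

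Beta-catenin's turnover and target genes gave no calls. None of 11 tested genes of its turnover and none of 6 tested TCF factors and targets passed in edgeR or DESeq2. Axin2, the feedback inhibitor often read as a Wnt target, had 1 read in all, in WT replicate 4, and Lef1, Tcf7, Nkd1, Notum, Rnf43 and Sp5 had none. Ccnd1, a cyclin that beta-catenin and many other signals induce, stood at 146 ± 83.2 CPM in KO-labelled and 296 ± 41.2 CPM in WT libraries (SD, n = 3 each; edgeR adjusted p = 0.547; 0.0268 with limma-voom under robust moderation). Exons of other genes cover 23.4% of those of Ccnd1 and 25.5% of those of Vcl.

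Transcription factors known to repress Cdh1 gave no call in edgeR or DESeq2. Zeb1 stood at 25.6 ± 5.89 CPM in KO-labelled and 19.5 ± 3.90 CPM in WT libraries, and Zeb2 at 51.6 ± 14.9 CPM in KO-labelled and 29.0 ± 8.39 CPM in WT libraries (SD, n = 3 each; edgeR adjusted p = 0.99996 for each). Every KO-labelled value of Zeb2 (46.0, 68.5 and 40.3 CPM) lay above every WT value (35.9, 31.5 and 19.7 CPM), and the groups of Zeb1 overlapped. Snai1 had 17 reads, all in WT replicate 5, and Twist1 had 1 read, in KO replicate 6. Vim, the intermediate filament of mesenchymal cells, was abundant, at 3660 ± 319 CPM in KO-labelled and 2802 ± 29.5 CPM in WT libraries, a log2 fold change of 0.39 ± 0.13 (edgeR adjusted p = 0.479, DESeq2 0.0453, limma-voom 0.0446).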

How the data were processed

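Poly(A) RNA of 6 ID8 libraries was sequenced. The submitters' processing notes name fastp, HISAT2 (version 2.0.5), featureCounts (version 1.5.0-p3) and the build mm10. Settings, strand mode and annotation release are unknown here. The authors deposited raw counts of reads per gene. Symbols, coordinates and merged exon lengths come from GENCODE M21 of that build (53360 of 53465 IDs matched).

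Genes were filtered with filterByExpr (minimum count 10; 8200 kept), scaled by TMM and tested with edgeR 4.0.16 in R 4.3.3 (robust quasi-likelihood, group as only term, two-sided, Benjamini-Hochberg over all tested genes, threshold 0.05). CPM uses TMM library sizes. DESeq2 1.42.0 and limma-voom (limma 3.58.1) served as alternatives. DESeq2 was first run on the filtered genes (237 called) and limma-voom with robust moderation (93 called). After those results were seen they were replaced by DESeq2 on all genes with a read (236 called) and limma-voom without robust moderation (43 called), the settings of an earlier analysis of these data. All 4 are reported.

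The members and lists were chosen with earlier results of these data known. Named were all members and, from the lists, genes called by edgeR or DESeq2 and some of the 4 most abundant. Lmo7, Ablim1, Krt8, genes without a read, Axin2, Esrp2, Snai1 and Twist1 were named after their values were seen. Same-numbered replicates did not deviate together (correlations -0.02 to 0.00), so the numbers were not taken as pairs.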

Additional observations from a re-analysis of the deposited data

How the results depend on the processing

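The edgeR count of 33 genes (15 higher, 18 lower) became 236 with DESeq2 and 237 with DESeq2 on the filtered genes, 43 with limma-voom and 93 with robust moderation, 91 without a filter on low counts, 16 at an adjusted p of 0.01, and 6 to 29 with 1 library left out (6 without WT replicate 5 and 6 without WT replicate 6). With counts divided by the histogram peak it was 102 for the window of 11, 104 for 5, 105 for 7 and 105 for 9. The robust, filtered and peak settings were chosen or replaced after seeing the data. The count of members called, 0, became 1, in each case Esam, with both DESeq2 runs, without a filter, and with the peak windows of 5, 7 and 9, and 0 to 0 with 1 library left out. Library totals in place of TMM called 43 genes, 27 higher and 16 lower, and put the median log2 fold change of all tested genes at 0.09, against -0.02. Cdh2, Cdh3, Ctnnb1, Ctnna1, Ctnnd1 and Esam kept their direction under the 13 other settings and the 6 fits with 1 library left out. The estimate of Dsp turned to -0.31, -0.17, -0.29 and -0.25 with the peak windows of 11, 5, 7 and 9 (-0.47 to 0.53 with 1 library left out), and that of Tjp1 to 0.070 with library totals (-0.18 to 0.12). That of Nat10 turned to 0.019 with limma-voom and 0.019 with robust moderation, 0.026 with library totals, and 0.046, 0.030, 0.024 and 0.054 with the peak windows of 11, 5, 7 and 9 (-0.35 to 0.35); the cause was not tested. With the replicate number as a block, 38 genes and 0 members were called and Esam had a log2 fold change of -7.93 (edgeR adjusted p = 0.178). The intervals of Dsp and Ctnnd1 are wide; the parts of depth and of spread between libraries in this were not tested.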

Other observations

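The genes next to Esam on chromosome 9 were looked at after its values were seen. Within 500000 bases on either side 4 genes were tested, Ccdc15, Siae, Spa17 and Tbrg1. All 4 had an estimate below 0, from -1.56 for Ccdc15 to -0.01 for Tbrg1, and none passed in edgeR (0 of 4 at an unadjusted p under 0.05). Of all 8200 tested genes 4179 had an estimate below 0. In windows of the same width, 7 of 18 tested genes around Cdh1 and 9 of 16 around Ctnna1 had one. Siae had 71, 3 and 144 counts in KO-labelled libraries and 88, 98 and 94 in WT libraries, without overlap once scaled. Of all tested genes 7.93% were lower without overlap. Tbrg1 had 19, 437 and 294 counts in KO-labelled libraries and 90, 303 and 140 in WT libraries. Msantd2, which was not tested, had 0, 0 and 47 counts in KO-labelled libraries and 0, 20 and 0 in WT libraries.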
